A study of Mus musculus with 8 samples.

Results

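Non-polyp colon taken on day 112 of a colitis-associated tumour protocol was compared with untreated colon, both from wild-type BALB/cA mice, by RNA sequencing. Each side of the comparison is 1 library of 8 in the series, so differences between them have no replicate check and are given as values without a test. The steady-state group is wild-type colon with no treatment in the labels. The non-polyp group is wild-type colon without polyps on day 112 after azoxymethane (AOM), an alkylating carcinogen, combined with dextran sulfate sodium (DSS), a polymer that injures the colon lining when given in drinking water. The other libraries are wild-type colon on day 12 of DSS, wild-type polyps on day 112, and the same stages in DCIR-/- mice, which lack an inhibitory C-type lectin receptor of myeloid cells encoded by Clec4a2. The labels give neither the age nor the sex of the animals, nor the length of colon taken, nor whether a library holds 1 animal or a pool. Of 54688 genes listed in all files, 50476 remained after genes of chromosomes X and Y, genes of the male accessory glands and genes with irregular values were left out. The comparison below covers the 16361 of these with a mean of at least 1 TPM (a transcript level scaled to library size and already divided by transcript length) over the 8 libraries.

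The colon is lined by crypts in which stem cells, held by WNT signals, give rise to absorptive colonocytes, mucus-making goblet cells and hormone-making enteroendocrine cells. Its wall holds smooth muscle, enteric neurons and glia, and its mucosa holds B cell follicles. In the AOM-DSS model, repeated injury after a carcinogen leads to polyps, mainly in the distal colon, and the colon between polyps is often used as the matched tissue. The colon is not uniform along its length. Genes at the 5′ end of the Hox clusters, such as Hoxd13 and Hoxb13, mark the posterior end of the body axis and the distal gut. Fabp2, the intestinal fatty acid-binding protein, marks absorptive cells of the small intestine and of the proximal part of the colon. The Hox genes and Fabp2 were therefore read beside every other group.

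Several properties of whole libraries moved with the groups. Depth was similar, with 2.89 gigabases of aligned bases implied at steady state and 2.85 in non-polyp colon, in a series range of 2.70 to 3.35. Xist, transcribed from the inactive X chromosome, was at 0.114 TPM at steady state and 63 TPM in non-polyp colon, and the Y-linked Ddx3y was at 27.8 TPM and listed at 0. RNA of male accessory glands was present at steady state, where Pbsn, the prostate gene probasin, stood at 2197 TPM, and Pbsn was listed at 0 in non-polyp colon. All 4 day 112 libraries carried Xist and the 4 steady-state and DSS libraries carried Ddx3y and Pbsn, so the sex-chromosome pattern, the gland RNA and the stage cannot be told apart. Clec4a2 stood at 2.96 TPM in wild-type steady-state, 4.33 in wild-type DSS, 2.74 in wild-type non-polyp and 3.68 in wild-type polyp libraries. It was listed at 0 in 3 libraries labelled knockout and at 0.659 TPM in the library labelled knockout steady state. The library labelled knockout non-polyp held 566 TPM of Wif1 and 331 TPM of Notum, secreted WNT inhibitors that stood at 626 and 317 TPM in the wild-type polyp library, so the pair of libraries labelled knockout is a second comparison of stages with that limit.

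Across the 16361 genes, 642 were at least 2-fold higher in non-polyp colon, which is 3.92% of them, and 1381 were at least 2-fold lower, which is 8.44%. The median log2 difference of all genes was -0.13. Scaling the libraries by median-of-ratios size factors moved that median to 0.0225 and gave 888 higher and 1049 lower genes. FPKM values in place of TPM gave a median of -0.0119 with 619 higher and 817 lower genes, so the balance of directions depends on the scaling. As a yardstick, the library labelled knockout steady state was at least 2-fold above wild-type steady state in 587 genes (3.59%) and below it in 194 (1.19%). In bulk tissue, fewer cells of a type and less RNA per cell cannot be told apart. Non-polyp colon stood apart from the other 7 libraries more often than any other library did. It was at least 2-fold above all of them in 122 genes (0.746%) and below all of them in 122 genes (0.746%), against 6 to 85 genes above and 7 to 39 below for the other libraries. These genes made up 19% of the genes that were higher in the pair and 8.83% of those that were lower. Such a count can be lower for a library that has a similar one in the series. The library labelled knockout non-polyp carried polyp-level WNT inhibitors, as given above. In 36 genes (0.22%) all day 112 libraries were at least 2-fold above all steady-state and DSS libraries, and in 163 genes (0.996%) they were below them.

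**Figure D1:**
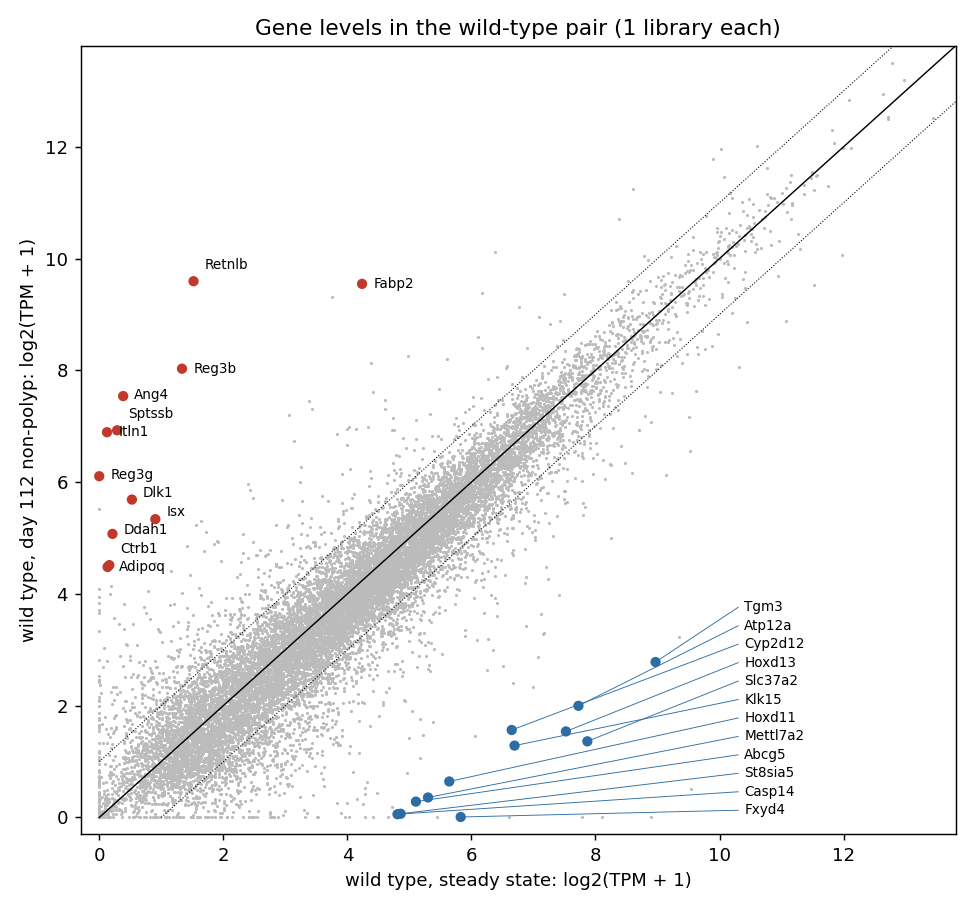
Level of each gene as log2(TPM + 1) in wild-type steady-state colon (x axis) and wild-type day 112 non-polyp colon (y axis), 1 library each, with equality as a solid line and 2-fold differences as dotted lines. Labelled points are the 12 genes with the largest difference in each direction after RIKEN clones, predicted models and pseudogenes were left out, and Retnlb is the farthest of them above the line, at 1.87 and 772 TPM.

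The genes that stood highest above their steady-state level were mostly products of the epithelium. Retnlb (ENSMUSG00000022650, chromosome 16, 48816856 to 48818892, GRCm38), a goblet cell protein that acts against bacteria and helminths, was at 1.87 TPM at steady state and 772 TPM in non-polyp colon, a log2 difference of 8.07. In the other libraries Retnlb lay between 3.95 and 28.9 TPM. Ang4 (ENSMUSG00000060615), an antimicrobial ribonuclease, was at 0.306 and 185 TPM. Itln1 (ENSMUSG00000038209), an intelectin that binds microbial sugars, was at 0.0907 and 118 TPM. For both Ang4 and Itln1, every day 112 library was above every steady-state and DSS library, whereas for Retnlb the non-polyp library was far above the rest.

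Reg3b (ENSMUSG00000071356) and Reg3g (ENSMUSG00000030017), secreted C-type lectins that kill bacteria, were low at steady state, where Reg3b stood at 1.52 TPM and Reg3g was listed at 0. In non-polyp colon Reg3b stood at 260.3 TPM and Reg3g at 67.9 TPM. The wild-type polyp library held 98.4 TPM of Reg3b and 61.2 TPM of Reg3g. The genes are neighbours on chromosome 6 and close paralogs, so part of their reads may be shared. The 120 bases before the start site of each, from RefSeq on GRCm38.p6, are shown because both members of the pair were among the largest differences. They read, 5′ to 3′ on the strand of the gene, with the letters TATAAAA in capitals:
Reg3b, chr6:78370765-78370884, plus strand: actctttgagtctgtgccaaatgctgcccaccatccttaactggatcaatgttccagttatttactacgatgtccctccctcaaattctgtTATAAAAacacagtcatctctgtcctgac
Reg3g, chr6:78468875-78468994, minus strand: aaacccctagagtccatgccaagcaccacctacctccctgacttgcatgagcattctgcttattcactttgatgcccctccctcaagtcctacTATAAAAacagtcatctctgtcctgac
The stretches matched at 88 of 123 aligned positions, or 71.5%, and TATAAAA began at position -29 relative to the start of Reg3b and -27 relative to that of Reg3g. The same letters, on either strand, were in 5.48% of all mouse promoters of 300 bases in the table. This describes the letters and says nothing of what binds them.

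Among the other higher genes, Sptssb, a small subunit of the enzyme that starts sphingolipid synthesis, was at 0.221 TPM at steady state and 121 TPM in non-polyp colon. Fabp2 was at 17.9 and 747 TPM. Isx, an intestinal homeobox factor that represses carotenoid and vitamin A uptake genes, was at 0.872 and 39.4 TPM. These 3 genes were at least 2-fold above all other libraries. Dlk1, a transmembrane protein related to Notch ligands, was at 0.44 and 50.5 TPM and also stood above all others. Ctrb1, the pancreatic protease precursor chymotrypsinogen, was at 0.12 and 21.9 TPM. Adipoq, the fat cell hormone adiponectin, was at 0.0979 and 21.3 TPM, and at 40.4 TPM in the library labelled knockout steady state. Ddah1, which breaks down methylated arginine, was at 0.159 and 32.7 TPM in its annotated entry. The loci assembled from the reads inside Ddah1 summed to 43.1 and 74.9 TPM, a log2 difference of 0.78 in place of 4.86, so its place among the largest differences depends on how reads were assigned.

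The genes that stood lowest included enzymes and transporters of surface colonocytes. Slc37a2 (ENSMUSG00000032122, chromosome 9, 37227585 to 37255738), a sugar-phosphate exchanger, was at 233 TPM at steady state and 1.57 TPM in non-polyp colon, a log2 difference of -6.51. It lay between 2.86 and 94.5 TPM elsewhere, with the DSS libraries in between and the other day 112 libraries also low. Tgm3, a transglutaminase that crosslinks proteins of barrier epithelia, was at 500.0 and 5.87 TPM, with 40.8 to 354 TPM elsewhere. Atp12a, the proton pump of the distal colon that takes up potassium, was at 211 and 2.99 TPM, with 13 to 320.5 TPM elsewhere. Fxyd4, a regulator of the sodium pump that responds to corticosteroids in distal colon, was at 55.8 and 0.0058 TPM. Its other libraries lay at 6.86 to 66.1 TPM, the wild-type DSS library lowest.

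Abcg5, a subunit of the sterol exporter, was at 33.4 and 0.217 TPM. Klk15, a kallikrein protease, was at 103 and 1.44 TPM, with 46.2 to 89.5 TPM elsewhere. Cyp2d12, a cytochrome P450, was at 99.4 and 1.96 TPM, and each other day 112 library held 0.916 to 1.23 TPM of it. St8sia5, which adds sialic acid to gangliosides, was at 28 and 0.0474 TPM. Casp14, a caspase of cornifying epithelia, was at 27 and 0.0415 TPM, and Mettl7a2, a methyltransferase-like protein, at 38.4 and 0.282 TPM. Hoxd13 and Hoxd11 complete the 12 genes named as lowest and are described with position. RIKEN clones and predicted models were not eligible, and some of them were lower still, such as 9530053A07Rik at 739.7 and 0.421 TPM. It was low in every day 112 library and lay at 553 to 1692 TPM in the steady-state and DSS libraries, which carried gland RNA. For 9530053A07Rik, stage and gland RNA cannot be told apart. Of the 12 genes named as lowest, 10 were at least 2-fold below all other libraries, and of the 12 named as highest, 7 were above all others.

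Genes that mark position along the gut differed in this pair, and did so within 1 Hox cluster more than in the others. Hoxd13 (ENSMUSG00000001819, chromosome 2, 74668310 to 74671599) stood at 183 TPM in wild-type steady-state, 169 in labelled knockout steady-state, 159 in wild-type DSS, 157 in knockout DSS, 129.8 in labelled knockout non-polyp, 41.1 in wild-type polyp and 131 in knockout polyp libraries. In wild-type non-polyp colon it was at 1.91 TPM, below all others, and the log2 difference from wild-type steady state was -5.98. Its neighbours on the chromosome were low with it. Hoxd12 was at 14.9 and 0.197 TPM, Hoxd11 at 49 and 0.563 TPM, and Hoxd10 at 18.5 and 0.438 TPM in the pair. Evx2, a homeobox gene next to Hoxd13 that was added after its values were seen, was at 13.3 and 0.191 TPM. The wild-type polyp library held the next lowest level of Hoxd13, Hoxd11 and Hoxd10, at 41.1, 8.71 and 5.78 TPM, and a lower level than non-polyp colon for Hoxd12 alone, at 0.0749 TPM.

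In the HoxB cluster, Hoxb13, the most posterior gene, was at 384 TPM at steady state and 71 TPM in non-polyp colon, with 199.9 to 381 TPM elsewhere. Hoxb9 was at 30.2 and 48.4 TPM. In the HoxA cluster the posterior genes were close in the pair. Hoxa13 was at 49.7 and 43 TPM, whereas the other day 112 libraries held 10.8 to 16.6 TPM. Hoxa11 was at 49.7 and 42.9 TPM, Hoxa10 at 63.4 and 76.5 TPM and Hoxa9 at 40.2 and 41.3 TPM. Of 16 Hox genes of paralog groups 9 to 13, 11 passed the filter, 5 were at least 2-fold lower and 0 higher, and their median log2 difference was -0.26. Of 23 of groups 1 to 8, 15 passed, with 2 higher, 1 lower and a median of 0.63. The shares over all genes were 3.92% higher and 8.44% lower. Hoxb3 at 0.789 and 4.72 TPM and Hoxb5 at 4.03 and 9.28 TPM were the higher genes, and Hoxa6 at 10.1 and 3.91 TPM was the lower gene.

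Fabp2 (ENSMUSG00000023057, chromosome 3, 122895072 to 122899506) stood at 17.9 TPM at wild-type steady state and 747 TPM in wild-type non-polyp colon, a log2 difference of 5.31. The other libraries held 3.45 to 21.1 TPM, so the non-polyp library stood alone. Alpi, the intestinal alkaline phosphatase of enterocytes, went with it, at 0.644 and 12.5 TPM. Other enterocyte genes of the small intestine lay on both sides. Cyp2c55, a cytochrome P450, was at 321 and 598 TPM, short of 2-fold. Slc10a2, the ileal bile acid carrier, was at 32.1 and 6.77 TPM, and Dpp4, a brush-border peptidase, at 17.6 and 6.2 TPM. Of 20 listed enterocyte genes, 12 passed the filter, 2 were at least 2-fold higher and 3 lower, with a median of -0.53. Among all genes, 3.92% were higher and 8.44% lower. Among regional transcription factors, Cdx2, which sets intestinal identity, was at 83.7 and 236 TPM. Isl1, a factor of neuroendocrine and other cells, was at 4.61 and 0.714 TPM, or 4.61 and 1.95 TPM in the assembled loci. Other genes that were picked after their values were seen had the pattern of Fabp2. Dpep1, a brush-border dipeptidase, was at 20.3 and 195 TPM, and Cldn15, a claudin that forms sodium pores, at 25.7 and 140.0 TPM.

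**Figure D2:**
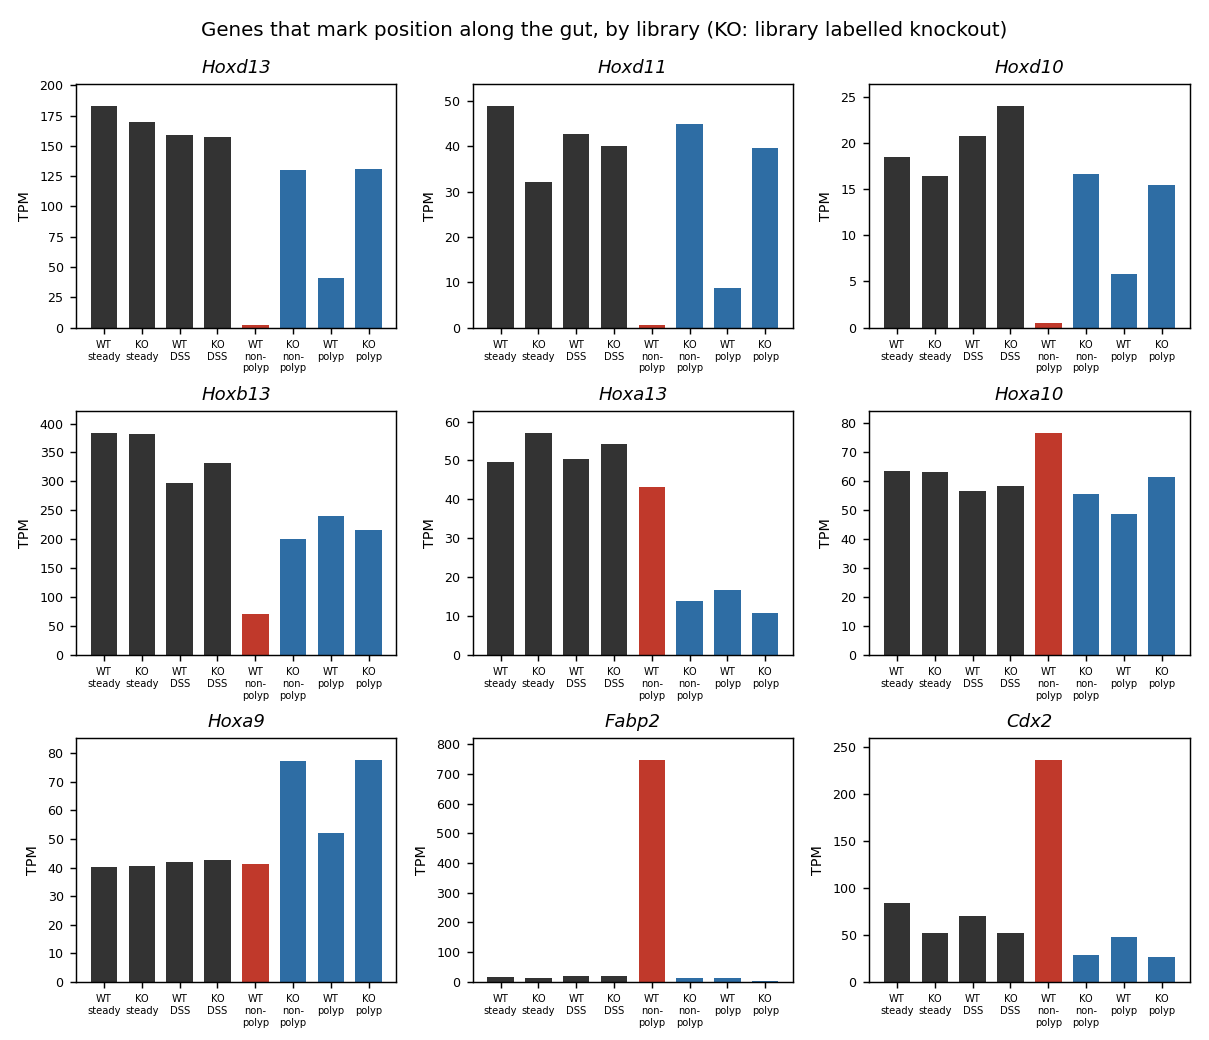
TPM of 9 genes that mark position along the gut in each of the 8 libraries (1 bar per library, wild-type non-polyp in red, steady-state and DSS libraries in black, other day 112 libraries in blue, each axis from 0). Hoxd13, Hoxd11, Hoxd10 and Hoxb13 are lowest and Fabp2 and Cdx2 highest in wild-type non-polyp colon, while Hoxa9 and Hoxa10 stay near their steady-state level.

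How far a different stretch of colon accounts for the other differences was not tested, since no label gives the stretch and wild-type non-polyp colon is represented by a single library. In the pair labelled knockout, Hoxd13 was at 169 and 129.8 TPM and Fabp2 at 11.9 and 13.2 TPM. Other position genes of that pair were lower, Hoxa13 at 57.1 and 13.8 TPM, Hoxa11 at 46.3 and 10.2 TPM and Hoxb13 at 381 and 199.9 TPM. Hoxa10 was at 63 and 55.4 TPM, and Hoxa9 was higher, at 40.5 and 77.5 TPM. Whether the pair labelled knockout was matched for position was not tested. In that pair, which shares no library with the wild-type pair, 1566 genes (9.57%) were at least 2-fold higher and 2537 (15.5%) lower. Both pairs shared 188 higher genes, or 29.3% of the wild-type and 12% of the knockout set, and 610 lower genes, or 44.2% and 24%. Directions were opposite for 152 genes that were higher and 78 that were lower in the wild-type pair. For most groups below, the median log2 difference of the pair labelled knockout is given after the wild-type median.

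Antimicrobial genes of the epithelium were the group with the most high members by number, though not by share. Larger shares were at least 2-fold higher among red blood cell genes (4 of 4 that passed), fat cell genes (9 of 13) and neuron and glia genes (9 of 14). Of 19 listed genes, 18 passed the filter, 10 were at least 2-fold higher and 1 lower, with a median log2 difference of 2.81 and of 1.99 in the pair labelled knockout. Over all genes the shares were 3.92% and 8.44% and the median -0.13, as given above. Pla2g2a, a phospholipase that attacks bacterial membranes, was at 12.4 and 631 TPM, and at 18173 TPM in the wild-type polyp library. Mptx1, a pentraxin of the gut, was at 19.9 and 281 TPM (45.5 and 330.5 TPM in the assembled loci), and its DSS libraries stood at 126 and 239.9 TPM while the other day 112 libraries held 1.25 to 3.58 TPM. The lower member was Saa1, an acute-phase apolipoprotein, at 2153 and 469 TPM. Lypd8, which coats flagellated bacteria, was at 11064 and 5872 TPM. Defa24, a Paneth cell defensin gene added after its values were seen, was listed at 0 at steady state and stood at 16 TPM in non-polyp and 1257 TPM in polyp tissue of wild type, and its family members are close copies that may share reads.

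Absorptive colonocyte genes differed in both directions, and their counts stand beside shares of 3.92% higher and 8.44% lower over all genes. Of 25 listed genes, all of which passed the filter, 8 were at least 2-fold higher and 5 lower, with a median of -0.49 against -2.13 in the pair labelled knockout. Slc9a3, the apical sodium-proton exchanger, was at 14.9 and 123 TPM. Tmigd1, an adhesion protein of the brush border, was at 1.94 and 36.4 TPM (4.82 and 36.5 TPM in the assembled loci), and Emp1, an epithelial membrane protein, at 68 and 385 TPM. On the lower side, beside Atp12a, Slc20a1, a phosphate carrier, was at 220.0 and 64.2 TPM. Car4, a membrane carbonic anhydrase, was at 803 and 312 TPM, the water channel gene Aqp8 at 710.3 and 314 TPM, and Scnn1g, a subunit of the epithelial sodium channel, at 9.12 and 1.94 TPM. Car4 and Aqp8 were at 15.8 and 12.7 TPM in the library labelled knockout non-polyp, so the wild-type non-polyp library lay between it and steady state.

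Goblet cell genes lay on both sides of 0, and those past 2-fold were higher. Of 14 listed genes, 4 were at least 2-fold higher and 0 lower, with a median of 0.29 against -1.68 in the pair labelled knockout. Among all genes, 3.92% were higher and 8.44% lower. The differences of 8 listed goblet cell genes were above 0 and those of 6 below it. Among the latter, Best2 was at 80.3 and 45.3 TPM and Muc13 at 1333 and 791 TPM. Agr2, which folds mucins, was at 1563 and 4138 TPM, Spdef, a goblet cell transcription factor, at 36.4 and 96.1 TPM, and Spink4, a secreted protease inhibitor, at 1035 and 3970.3 TPM. Agr2 and Spdef stood above all other libraries, which held at most 1856 and 65.1 TPM. Muc2, the gel-forming mucin, is the other higher member. Its level is listed in 3 separate stretches at steady state, which sum to 390.3 TPM, and in 1 entry of 2419 TPM in non-polyp colon. The values of Muc2 are therefore not comparable, although the goblet cell counts and median above include it. Of 12 enteroendocrine genes, 3 were higher and 3 lower, with a median of -0.56 against -1.77. Cck, the hormone cholecystokinin of the upper gut, was at 0.139 and 16.6 TPM, Nts, neurotensin, at 0.52 and 7.48 TPM, and Sst, somatostatin, at 19.5 and 60.3 TPM. Fev, a factor of serotonin-making cells, was at 4.32 and 0.991 TPM.

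WNT target and stem cell genes were mostly level or lower in non-polyp colon. Of 23 listed genes, 22 passed the filter, 1 was at least 2-fold higher and 4 were lower, with a median of -0.31 against 1.68 in the pair labelled knockout. The shares over all genes were 3.92% higher and 8.44% lower. Notum was the higher gene, at 0.18 and 2.41 TPM, beside 317 TPM in the wild-type polyp library. Sox9, a crypt transcription factor, was at 71.4 and 25.6 TPM, and both DSS libraries held similar levels, 23.7 and 19.2 TPM. Rnf43, which removes WNT receptors, was at 22.7 and 7.61 TPM in its annotated entry but at 26.2 and 74.4 TPM in the assembled loci, so its direction depends on read assignment. Mmp7, a matrix protease, was at 142 and 8.77 TPM, and its level kept to between 6.46% and 7.52% of that of Pbsn in the 4 libraries with gland RNA. Of 20 cell cycle genes, 1 was higher, close to the share over all genes, and 0 were lower, with a median of 0.25 against 0.86. The higher gene, Birc5, which acts in chromosome segregation, was at 32.6 and 73.8 TPM.

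Genes of the circadian clock were among the groups with the most low members. The clock is a loop in which ARNTL and CLOCK switch on Per, Cry, Nr1d1, Dbp and Tef through E-boxes, while NR1D1 and ROR proteins act on Arntl and Nfil3 through ROR elements, and DBP and TEF act through D-boxes. Dbp, an output factor of the loop, was at 134 TPM at wild-type steady state and 6.35 TPM in wild-type non-polyp colon, a log2 difference of -4.20. The other steady-state and DSS libraries held 105 to 317 TPM and the other day 112 libraries 2.18 to 9.25 TPM, with no overlap. Nr1d1, the repressor of Arntl, was at 149 and 18.4 TPM, Tef at 58.7 and 9.19 TPM and Per3 at 10.9 and 1.81 TPM. The higher genes of the loop were Nfil3 and Cry1. Nfil3, which opposes DBP at D-boxes, was at 3.83 and 19.5 TPM, Cry1 at 6.64 and 26.4 TPM and Arntl, which stayed just short of 2-fold on the TPM + 1 scale, at 12.1 and 25.1 TPM. Of 18 clock genes, 9 were at least 2-fold lower and 2 higher, and the median was -1.04, and -1.63 in the pair labelled knockout. Among all genes, 8.44% were lower and 3.92% higher. The labels give no time of day for any sample, and its part in the result was not tested.

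The stretches of 30 bases below, from RefSeq promoters on GRCm38.p6 that run from 250 bases before to 50 after the start, show the clock elements near genes of both phases, with the element in capitals. They were found by searching both strands for the letters CACGTG (E-box), TAGGTCA (ROR element) and TTATGTAA (D-box), which do not overlap each other:
Per3 D-box, chr4:151044852-151044881, minus strand: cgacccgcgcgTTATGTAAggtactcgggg
Per3 D-box, chr4:151044805-151044834, minus strand: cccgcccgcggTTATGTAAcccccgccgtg
Tef E-box, chr15:81802534-81802563, plus strand: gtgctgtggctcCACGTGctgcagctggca
Cry1 E-box, chr10:85185097-85185126, minus strand: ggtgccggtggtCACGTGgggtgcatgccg
Arntl ROR element, chr7:113207530-113207559, plus strand: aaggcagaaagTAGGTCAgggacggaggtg
Nfil3 ROR element, chr13:52981034-52981063, plus strand, opposite to the gene: atgtgtgttagTAGGTCAgttccgagcgcc
Of the genes with a ROR element, Nfil3 was at least 2-fold higher in non-polyp colon and Arntl stayed just short of that on the TPM + 1 scale, and the gene with D-boxes, Per3, was lower, while the E-box was found near a lower gene, Tef, and a higher gene, Cry1. Of 15 clock genes in the table, 5, Tef and Cry1 among them, held the E-box letters, 2 the ROR element and 1 the D-box. Of 32851 promoters, 7.15%, 2.61% and 0.938% held them. A gene can have more than 1 promoter, as Tef does, so counts of genes and shares of promoters are in different units. A match is a description of the letters.

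**Figure D3:**
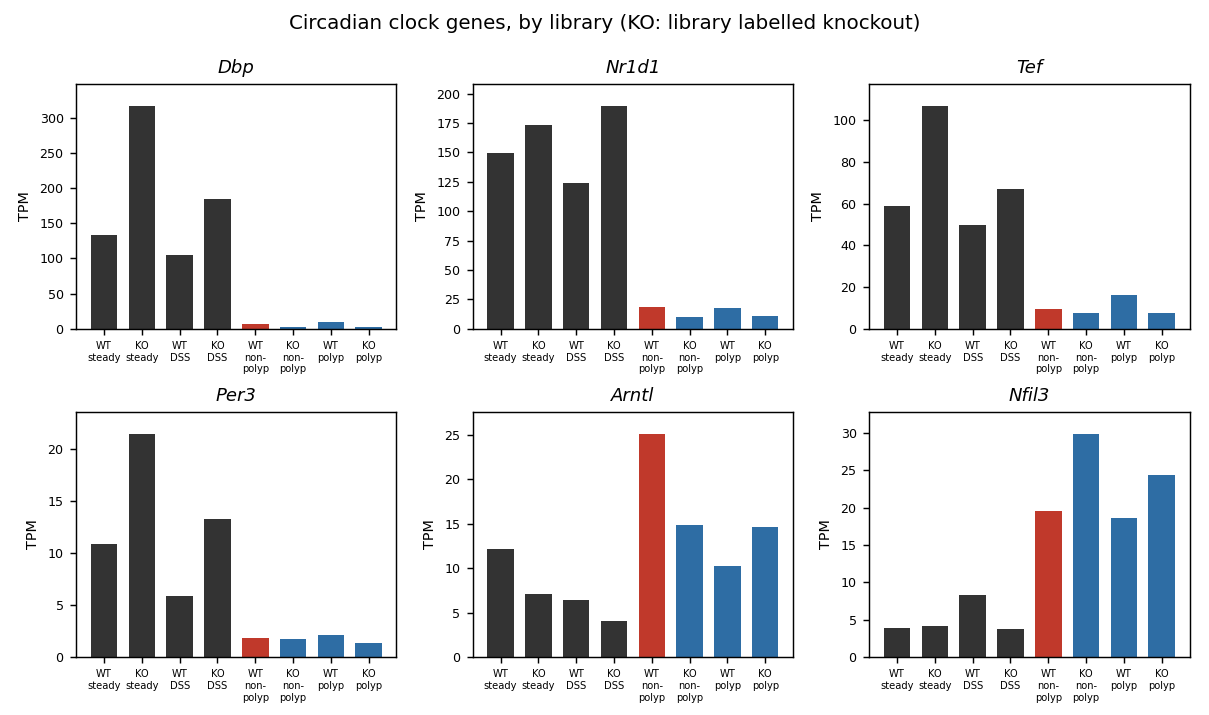
TPM of 6 circadian clock genes in each of the 8 libraries (1 bar per library, wild-type non-polyp in red, steady-state and DSS libraries in black, other day 112 libraries in blue, each axis from 0). Dbp, Nr1d1, Tef and Per3 are low and Nfil3 is high in all day 112 libraries, and Arntl is highest in wild-type non-polyp colon at 25.1 TPM.

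Most genes of the B and plasma cell list were lower in non-polyp colon, and Igha and Jchain were not. Of 16 listed genes, 11 were at least 2-fold lower and 0 higher, with a median of -1.64, and -2.62 in the pair labelled knockout. The shares over all genes were 8.44% lower and 3.92% higher. Igha and Jchain were the 2 members above 0, and the other 14, with Mzb1 and Xbp1 among them, were below it. Ms4a1, the B cell antigen CD20, was at 15.5 and 1.44 TPM (15.5 and 3.64 TPM in the assembled loci), Fcer2a, a low-affinity IgE receptor of follicular B cells, at 13.4 and 1.46 TPM, and Ighd, the IgD constant region of naive B cells, at 22.8 and 3.2 TPM. Cd22, an inhibitory B cell receptor, was at 11 and 1.28 TPM, or 11.6 and 3.24 TPM in the assembled loci. In 10 of the listed genes, every day 112 library was at least 2-fold below every steady-state and DSS library. Among all genes, 0.996% had that pattern. Igha, the IgA constant region made by plasma cells, was at 4372 and 7312 TPM, and Jchain, which joins IgA units, at 1502 and 1584 TPM. Genes of class II antigen presentation that B cells use had the same direction, H2-Ob, a brake on peptide loading, at 11.1 and 3.58 TPM and H2-Oa, its partner, at 5.68 and 1.73 TPM. Ciita, the class II activator, was at 6.64 and 0.931 TPM, but at 6.38 and 6.04 TPM in the assembled loci. Cd74, the invariant chain, was at 848 and 639 TPM. Of 10 class II genes, 0 were higher and 3 lower, with a median of -0.31 against -0.99.

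The counts in the other immune groups stand beside shares of 3.92% higher and 8.44% lower over all genes. Of 16 T and NK cell genes that passed, 0 were higher and 3 at least 2-fold lower, among them Ccr7, a receptor for lymph node chemokines, at 5.36 and 1.71 TPM. The median of these genes was -0.63 against -0.75. Of 18 macrophage genes, 1 was higher and 1 lower, and of 9 dendritic cell genes none reached 2-fold. Medians were -0.22 against -0.19 for macrophage and -0.27 against -0.86 for dendritic cell genes. Of 10 neutrophil genes that passed, 4 were higher and 1 lower, with a median of 0.61 against 3.21. S100a9 and S100a8, the subunits of calprotectin, had steady-state levels of 1.66 and 0.722 TPM. In non-polyp colon they stood at 28 and 15.6 TPM, below the 274 and 154 TPM of the wild-type polyp library. The lower member was Ly6g, known as a neutrophil surface antigen, at 301 and 79.2 TPM, with 269 to 378 TPM in every other library. At steady state the listed neutrophil genes summed to 309 TPM, most of it Ly6g, while S100a9 and S100a8 were low. Ly6g thus did not move with the calprotectin genes, and whether it followed neutrophils here was not tested. Of 10 mast cell and eosinophil genes that passed, 2 were higher and 2 lower, with a median of -0.0541 against 4.66. The higher members, Mcpt1 and Mcpt2, proteases of mucosal mast cells that are close paralogs, had steady-state levels of 3.5 and 0.301 TPM. They stood at 11.5 and 5.54 TPM in non-polyp colon and at 311 and 181 TPM in the polyp library. The lower members were Cma1, a mast cell chymase, at 6.14 and 0.367 TPM, and Tpsb2, a tryptase, at 1.95 and 0.313 TPM. Of 21 interferon-stimulated genes, 2 were lower, with a median of -0.21 against -1.79, and of 14 interferon-gamma genes, 4 were lower, with a median of -0.42 against -1.43. Gbp2, a guanylate-binding protein, was at 45.4 and 19.2 TPM. Of 18 cytokine and chemokine genes that passed, 0 were higher and 4 lower, and the median was 0.16 against 1.99. Il18, an epithelial cytokine, was at 278 and 83.4 TPM, and Il33, an alarmin, at 12.2 and 3.1 TPM, or at 12.2 and 6.98 TPM in the assembled loci.

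The muscle and nerve of the colon wall were present in both libraries. Over all genes, 3.92% were at least 2-fold higher and 8.44% lower. Of 20 smooth muscle genes, 2 were at least 2-fold higher and 2 lower, with a median of 0.39, whereas the median was -3.04 in the pair labelled knockout. Tpm2, a tropomyosin, was at 1151 and 2321 TPM (1349.8 and 2376 TPM in the assembled loci), and at 124 TPM in the library labelled knockout non-polyp. Of 15 neuron and glia genes, 14 passed, 9 were higher and 0 lower, with a median of 1.03 against -2.01 in the pair labelled knockout. Gfap, a filament of glia, was at 1.67 and 9.38 TPM, or 5.12 and 10.02 TPM in the assembled loci. S100b, a glial calcium-binding protein, was at 1.92 and 5.91 TPM, and Sox10, a neural crest factor, at 2.47 and 6.45 TPM, or 2.96 and 6.45 TPM in the assembled loci. The summed level of the smooth muscle list was 9878 TPM at steady state and 16110.4 TPM in non-polyp colon, and that of the nerve list 161 and 273 TPM. These sums moved with the comparison, and their part in the other results was not tested.

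Fat cell genes were higher than in the wild-type steady-state library, and differed as much between the steady-state libraries. Of 14 listed genes, 13 passed, 9 were at least 2-fold higher and 1 lower, with a median of 2.68. The shares over all genes were 3.92% and 8.44%. Cfd, the adipocyte protease adipsin, was at 9.46 and 173 TPM, Car3, a carbonic anhydrase of fat and muscle, at 7.82 and 106 TPM, and Adipoq as given above. The library labelled knockout steady state held 222 TPM of Cfd and 309.5 TPM of Car3, and against it the median of the list was -0.65. The summed level was 327 TPM in wild-type steady-state, 1333 in labelled knockout steady-state, 842 in wild-type non-polyp and 90.1 TPM in labelled knockout non-polyp libraries. The direction of this group thus depended on which steady-state library was the reference. Haemoglobin genes of red blood cells were higher in non-polyp colon. Hbb-bs was at 23.5 and 177 TPM, Hba-a1 at 16.6 and 123 TPM and Hbb-bt at 2.13 and 38.6 TPM. All 4 that passed, of 6 listed, were at least 2-fold higher in every day 112 library than in every steady-state and DSS library. Among all genes, 0.22% had that pattern. The median of the 4 haemoglobin genes was 2.84 against 2.28. Hba-a1 and Hba-a2 are near-identical copies whose reads cannot be told apart.

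**Figure D4:**
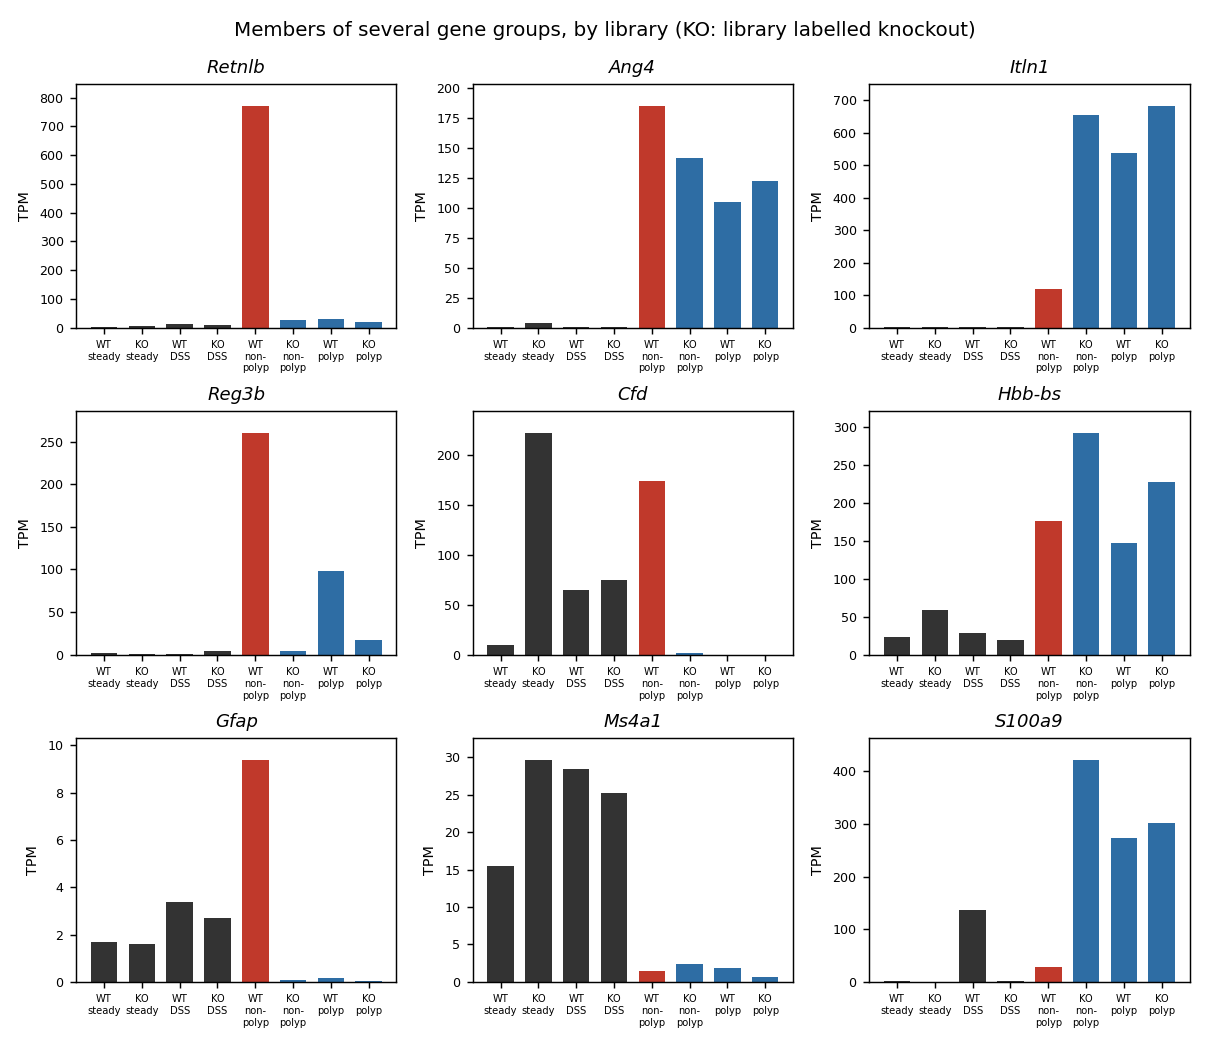
TPM of 9 genes from antimicrobial, fat cell, red blood cell, glial, B cell and neutrophil groups in each of the 8 libraries (1 bar per library, wild-type non-polyp in red, steady-state and DSS libraries in black, other day 112 libraries in blue, each axis from 0). Retnlb, Reg3b and Gfap are highest in wild-type non-polyp colon, Cfd is highest at labelled knockout steady state with 222 TPM, and Hbb-bs is high and Ms4a1 low in all day 112 libraries.

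Traces of pancreatic genes were found in wild-type non-polyp colon. Of 14 acinar genes, 8 were listed at 0 at steady state, and 0 of them had that value in non-polyp colon. Only 4 passed the filter, and Ctrb1 and Cela2a did so only through the wild-type non-polyp library, where they were high. The median of the 4, 1.65 against -0.12, is therefore partly set by the filter. With a mean of at least 10 TPM it was -0.55. Beside Ctrb1, Cela2a, an elastase, was at 0.362 and 7.5 TPM. Cela3b, Try5 and Prss2, digestive proteases listed at 0 at steady state, stood at 6.35, 7.32 and 4.79 TPM in non-polyp colon. Cela1, an elastase listed in every library, was at 413 and 121 TPM. The highest level of Ctrb1 in any other library was 0.25 TPM.

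Metabolic genes differed in both directions, and their counts stand beside shares of 3.92% higher and 8.44% lower over all genes. Of 15 PPAR target and ketogenesis genes that passed, 4 were at least 2-fold higher and 1 lower, with a median of 0.16 against -0.79. Pdk4, which slows pyruvate oxidation, was at 6.17 and 22.1 TPM, and Plin2, a lipid droplet protein, at 224 and 102 TPM. Of 19 xenobiotic and retinoid enzyme genes that passed, 6 were higher and 3 lower, with a median of -0.12 against -1.83. Ces1f, a carboxylesterase, was at 4.28 and 61.9 TPM, Cyp2c65, a cytochrome P450 of the gut, at 2.76 and 29.6 TPM, and Aldh1a1, which makes retinoic acid, at 13.3 and 115 TPM, or 39.9 and 119.9 TPM in the assembled loci. Cyp2e1, which oxidises ethanol and activates azoxymethane, was at 2.31 and 33.6 TPM, and at 94.1 TPM in the library labelled knockout steady state, where the fat cell genes were also high.

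The remaining groups complete the comparison, and their counts stand beside the same shares over all genes, 3.92% higher and 8.44% lower. Of 19 immediate early genes, 5 were higher and 2 lower, with a median of 0.32 against 1.16. Fos was at 118 and 338 TPM, Jun, its partner, at 93.3 and 262 TPM, and Egr1, a zinc finger factor, at 14.2 and 48.3 TPM. Of 12 heat shock genes, 1 was higher, and of 12 p53 targets, 1 was lower. Among 16 cholesterol synthesis genes none reached 2-fold, and the same held for 14 endothelial genes and for 5 tuft cell and 5 mesothelial genes that passed. Of 21 matrix and fibroblast genes that passed, 1 was higher and 0 lower, and the higher gene was Mmp3, a stromal protease, at 3.37 and 9 TPM. Of 5 skeletal muscle genes that passed, 0 were higher and 2 lower, and of 7 genes of squamous epithelium, 0 were higher and 1 was lower. Ano1, a chloride channel of the pacemaker cells of the gut wall, was at 180.1 and 56.3 TPM, while Kit, their receptor, was at 18.3 and 32.5 TPM, or 18.3 and 43.7 TPM in the assembled loci.

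**Figure D5:**
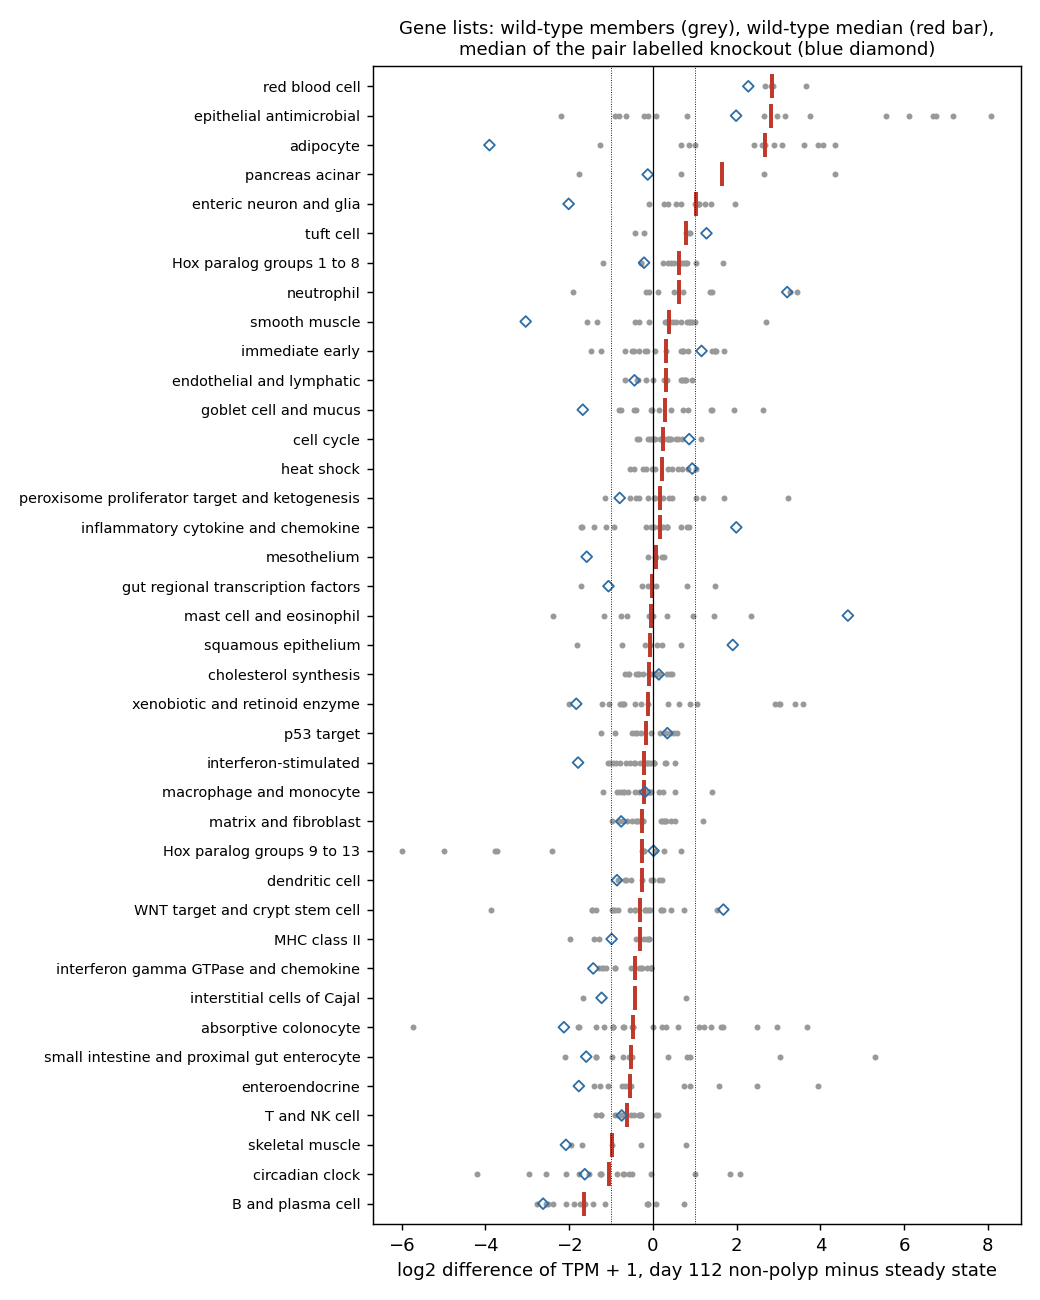
Log2 difference of TPM + 1 between day 112 non-polyp and steady-state colon (x axis) for 39 gene lists (y axis), with wild-type members that passed the filter as grey points, their median as a red bar and the median of the pair labelled knockout as a blue diamond. Dotted lines mark 2-fold. The red blood cell list is highest with a wild-type median of 2.84 and the B and plasma cell list lowest with -1.64.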

How the data were processed

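Libraries of RNA from frozen colon or polyps were prepared with an NEBNext Ultra kit, per the labels' protocols. The authors deposited coverage (mean signal per base), FPKM and TPM for each gene, per the file headers, and no read counts. StringTie and the build GRCm38 (mm10) are named in the submitters' processing notes. Version, aligner, annotation release and strand setting were not given in the sources used here, so overlapping genes and close paralogs may share reads. The deposited TPM column of 6 files also lists loci assembled from the reads. Only annotated genes entered the comparison, with TPM summed per gene ID. Groups were read from sample titles. The submitters' design text speaks of 5 samples, whereas 8 are listed.

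Left out were 4183 genes of chromosomes X and Y, 20 accessory gland genes (names starting Svs, Sva or Pate, with Pbsn, Tgm4, Msmb, Tcaf3 and Defb50) and 10 genes whose ratio of TPM to FPKM departed from the library median by more than 0.1%. Differences are of log2(TPM + 1), which understates low genes, and a gene is counted past 2-fold. Named genes are the 12 largest differences in each direction among genes of at least 10 TPM in either library (without predicted models, RIKEN clones, pseudogenes and receptor segments), members of 39 gene lists with the 4 largest differences each, and the Hox genes and Fabp2. Other list members are named for their role. The members and lists were chosen with earlier results of these data known. Alternatives were other pseudocounts, filters, scalings, FPKM, the other steady-state library, the pair labelled knockout, entries in several rows, genes that follow Pbsn and the assembled loci. The scripts (Python 3.11.15, pandas 2.3.3, numpy 2.4.6, matplotlib 3.10.9, Biopython 1.88) were tested on simulated differences. A value of 0 is given as listed at 0, since no counts set a floor.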

Additional observations from a re-analysis of the deposited data

Results flagged for a closer look

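Genes named above that differed at least 2-fold in opposite directions in the wild-type pair and the pair labelled knockout are given here as log2 differences of TPM + 1, wild type first. With 1 library per group the difference between the pairs was not tested, and the library labelled knockout non-polyp carried polyp-level WNT inhibitors. Fat cell and associated genes were Cfd at 4.06 and -6.58, Adipoq at 4.35 and -5.30, Car3 at 3.60 and -6.34, and Cyp2e1 at 3.38 and -6.21. For these, the library labelled knockout steady state was the highest of the series. Nerve and muscle genes were Gfap at 1.96 and -1.26, S100b at 1.24 and -1.41, Sox10 at 1.1 and -2.36, and Tpm2 at 1.01 and -3.56. In the assembled loci the wild-type differences of Gfap (0.85), Sox10 (0.91) and Tpm2 (0.82) fell short of 2-fold. Epithelial genes were Mptx1 at 3.76 and -3.43, Ces1f at 3.57 and -1.15, Dpep1 at 3.20 and -1.07, Aldh1a1 at 3.02 and -3.56, Cldn15 at 2.40 and -1.38, Sst at 1.58 and -2.61, Agr2 at 1.40 and -1.42, and Spdef at 1.38 and -1.23. Lower in wild type and higher in the pair labelled knockout were Hoxd12 at -3.73 and 1.17, the mast cell genes Cma1 at -2.38 and 3.37 and Tpsb2 at -1.17 and 4.54, and Rnf43 at -1.46 and 1.62, although the wild-type difference of Rnf43 was 1.47 in the assembled loci.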

How the results depend on the processing

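No paired analysis was possible because each group holds a single library and the labels carry no replicate numbers. With no replicates, neither the spread between animals nor a counting error can be set on any value, and low genes depend most on the pseudocount. A pseudocount of 0.1 gave 984 higher genes. A pseudocount of 5 gave 274 higher and 598 lower genes and a Hoxd13 difference of -4.77. A mean of at least 10 TPM left 277 higher and 651 lower genes, all 277 and 651 of them among those found with the lower filter, and a pancreas median of -0.55. FPKM gave 817 lower genes. The cause of these shifts was not tested, beyond the smaller number of genes under the stricter filter. Counts stayed within 1.5 times without a filter on low values, after rescaling, with size factors, and without genes of several rows or genes that follow Pbsn.

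Against the library labelled knockout steady state, 340 of the 642 higher and 1058 of the 1381 lower genes were shared. The direction turned for the adipocyte median (-0.65), Adipoq (-0.89), Car3 (-1.53), Cfd (-0.35) and Cyp2e1 (-1.46).

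The pair labelled knockout gave 1566 higher and 2537 lower genes, Fabp2 0.13 and Hoxd13 -0.38. Among list medians past 2-fold in wild type, those that turned were those of neuron and glia (-2.01), adipocyte (-3.90) and pancreas genes (-0.12). Medians nearer 0 that turned included smooth muscle (-3.04), WNT target (1.68) and goblet cell genes (-1.68). Beside the genes given above with opposite differences (Cfd -6.58, Adipoq -5.30, Car3 -6.34, Cyp2e1 -6.21, Gfap -1.26, S100b -1.41, Sox10 -2.36, Tpm2 -3.56, Mptx1 -3.43, Ces1f -1.15, Dpep1 -1.07, Aldh1a1 -3.56, Cldn15 -1.38, Sst -2.61, Agr2 -1.42, Spdef -1.23, Hoxd12 1.17, Cma1 3.37, Tpsb2 4.54, Rnf43 1.62), the direction turned, among other genes named in the comparison and past 2-fold, for Cdx2 (-0.82), Ctrb1 (-0.32), Cyp2c65 (-0.0335), Hoxb5 (-0.98), Hoxd10 (0.0154), Hoxd11 (0.47), Il33 (0.98), Isl1 (0.86), Klk15 (0.27), Mmp7 (0.74), Pdk4 (-0.13), Sox9 (0.95) and Tmigd1 (-0.37). The cause was not tested.

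The assembled loci and the genes that follow Pbsn were added as alternatives after the data were seen. In the assembled loci, 69 named genes kept their value within 1.5 times and their side of the threshold, 27 did not, and Rnf43 turned to 1.47. Those that did not were Abcg5 (-3.78), Aldh1a1 (1.56), Alpi (3.76), Atp12a (-4.95), Cd22 (-1.57), Ciita (-0.0686), Cyp2e1 (2.67), Ddah1 (0.78), Fcer2a (-3.43), Fxyd4 (-6.41), Gfap (0.85), Il33 (-0.73), Isl1 (-0.93), Isx (3.84), Kit (1.21), Mptx1 (2.83), Ms4a1 (-1.83), Muc2 (1.13), Notum (2.76), Nts (3.08), Scnn1g (-1.13), Slc20a1 (-2.78), Slc37a2 (-5.27), Sox10 (0.91), Tmigd1 (2.69), Tpm2 (0.82) and Tpsb2 (-2.02), of which Ciita, Ddah1, Gfap, Il33, Isl1, Sox10 and Tpm2 fell short of 2-fold. The value of Muc2 covers only the first of the separate stretches in which its steady-state level is listed, not the whole gene.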

Other observations

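Genes outside the lists, picked after their values were seen, add to the groups above. Muc3a and Muc4, membrane mucins, had steady-state levels of 19.2 and 6.7 TPM and non-polyp levels of 125 and 50.2 TPM. Aldh1a2, which makes retinoic acid in stroma, was at 1.24 and 20.4 TPM, and B3gnt6, which extends mucin sugars, at 0.492 and 27.9 TPM. In the pair labelled knockout, the log2 differences of Muc3a, Muc4, Aldh1a2 and B3gnt6 were -0.22, 0.12, -0.27 and 0.46. On the lower side, Wfdc2, a secreted protease inhibitor, was at 737 and 93.3 TPM, and Cps1, a urea cycle enzyme, at 6.8 and 0.0353 TPM. Egf, the epidermal growth factor, was at 15.2 and 1.24 TPM, and Slc6a4, the serotonin transporter, at 21.8 and 2.52 TPM. Egf lay at 12.5 to 29.9 TPM in the libraries with gland RNA and at most at 1.24 TPM in the day 112 libraries. Stage and gland RNA cannot be told apart for Egf. Mt3 and Mt4, metallothioneins, were at 51.6 and 4.85 TPM in non-polyp colon, beside 1012 and 2091 TPM in the wild-type polyp library.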
